A study of Rattus norvegicus with 16 samples.

Results

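The proteasome genes of rat pituitary cells were compared between cultures given eNampt, IL-6 or CRH and control cultures. They were taken by symbol: every gene whose array annotation symbol is Psma, Psmb, Psmc, Psmd, Psme, Psmf or Psmg followed by a number, measured on the brightest probe set that carries that symbol alone. This gave 39 of the 14557 genes with a probe set of their own on the array. Of 48 proteasome symbols looked for, 7 had no probe set in the annotation used here (Psma2, Psma3, Psmc3, Psmd3, Psmd4, Psmd9 and Psmg1), and Psme2 and Psme3 were found only on probe sets shared with other symbols, so no value is given for them. The immunoproteasome genes set apart were therefore Psmb8, Psmb9, Psmb10 and Psme1, which left 35 genes outside it.

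The study holds 16 Affymetrix arrays of primary corticotropes from 21-day-old Wistar rats, 4 arrays for each of eNampt, IL-6, CRH and control. Pituitary cells were dispersed with collagenase and cultured, and the corticotropes were drawn out with an antibody to the CRH receptor CRHR1 according to the growth protocol, or to CRH according to the series' design text. The medium of all 4 groups was DMEM/F12 without phenol red, with fetal bovine serum at 10% and FGF at 0.05 µg/l. The ligand groups were taken 24 h after eNampt (the extracellular form of nicotinamide phosphoribosyltransferase), IL-6 (interleukin-6) or CRH (corticotropin-releasing hormone) was added. The labels of the control group name no ligand and no time, and no doses were given for the ligands. Nothing states that the 4 arrays of a group stem from separate animals or cultures, so the p-values measure the spread between these arrays, which may be technical. Levels are RMA values on the log2 scale, so a difference of 1 is a doubling of the signal.

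The proteasome degrades proteins tagged with ubiquitin. Its 20S core is a barrel of alpha rings, which gate the entry, around beta rings, which hold the catalytic subunits Psmb5, Psmb6 and Psmb7. The 19S cap binds, unfolds and feeds in the substrate with its Psmc ATPases and Psmd non-ATPase subunits. In cells exposed to interferon-gamma, newly made cores take up Psmb8, Psmb9 and Psmb10 in place of Psmb5, Psmb6 and Psmb7, and the Psme1 and Psme2 cap (PA28) can replace the 19S cap. The resulting immunoproteasome is known for making peptides that load well on MHC class I. Endocrine cells such as corticotropes use the standard proteasome for turnover of cell cycle, signalling and misfolded secretory proteins.

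Promoter windows of 300 bases, 250 before to 50 after the annotated start, were found in RefSeq (build GRCr8) for 34 of the 39 genes. The core of the interferon-stimulated response element, searched on both strands as GAAANNGAA, was present in 2 of 4 immunoproteasome windows (Psmb8 and Psmb10), in 6 of 30 windows of the other proteasome genes (Psma4, Psmb2, Psmb3, Psmd7, Psmd11 and Psmg4) and in 9.71% of all 33469 windows in the table. The windows of Psmb8 and Psmb10 are shown beside those of the standard subunits they replace, Psmb5 and Psmb7, to show where these letters lie. Each is printed 5′ to 3′ on the gene's strand in lower case, with GAAANNGAA matches, or their reverse complement, in capitals. All 4 genes lie on the minus strand, at chr20:4656982-4657281 for Psmb8, chr15:32047330-32047629 for Psmb5, chr19:50743243-50743542 for Psmb10 and chr3:42827421-42827720 for Psmb7.
Psmb8 (immunoproteasome): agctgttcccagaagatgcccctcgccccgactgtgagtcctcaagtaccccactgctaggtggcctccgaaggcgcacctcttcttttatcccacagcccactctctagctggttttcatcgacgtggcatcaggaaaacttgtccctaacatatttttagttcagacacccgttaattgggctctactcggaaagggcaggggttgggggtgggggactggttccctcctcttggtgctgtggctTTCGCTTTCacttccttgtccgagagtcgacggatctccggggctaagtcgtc
Psmb5 (standard): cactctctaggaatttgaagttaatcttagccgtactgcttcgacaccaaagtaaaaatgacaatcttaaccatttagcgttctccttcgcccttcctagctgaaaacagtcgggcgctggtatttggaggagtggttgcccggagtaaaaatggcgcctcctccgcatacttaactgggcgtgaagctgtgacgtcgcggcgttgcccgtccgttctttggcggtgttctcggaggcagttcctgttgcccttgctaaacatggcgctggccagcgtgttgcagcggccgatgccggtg
Psmb10 (immunoproteasome): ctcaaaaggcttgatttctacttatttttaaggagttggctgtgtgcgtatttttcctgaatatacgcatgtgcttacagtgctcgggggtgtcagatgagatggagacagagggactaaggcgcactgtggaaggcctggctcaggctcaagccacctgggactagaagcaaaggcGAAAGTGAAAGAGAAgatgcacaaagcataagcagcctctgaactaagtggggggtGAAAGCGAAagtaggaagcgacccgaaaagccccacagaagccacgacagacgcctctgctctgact
Psmb7 (standard): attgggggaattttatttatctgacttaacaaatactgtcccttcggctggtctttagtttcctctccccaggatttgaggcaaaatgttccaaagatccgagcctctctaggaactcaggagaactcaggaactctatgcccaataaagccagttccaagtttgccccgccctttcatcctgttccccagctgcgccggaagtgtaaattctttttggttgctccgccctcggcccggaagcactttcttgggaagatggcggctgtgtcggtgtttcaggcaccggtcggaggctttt
The Psmb8 window held 1 match, in the reverse orientation next to the start, and the Psmb10 window held 3 in the forward orientation, 2 of which share bases, while the windows of Psmb5, Psmb7 and Psmb9 held none. The Psmb9 window (chr20:4668750-4669049, plus strand) overlaps that of the peptide transporter gene Tap1 (chr20:4668494-4668793, minus strand). The Tap1 window held 1 match, which lies outside the Psmb9 window. The gamma-activated site TTCNNNGAA was found in 1 of 4 immunoproteasome windows (Psmb8), 2 of 30 others (Psmc6 and Psmd7) and 8.87% of all windows. The NF-kB letters GGGNNTTNC were in 1 of 4 (Psmb10), 4 of 30 (Psmb2, Psmd2, Psmd7 and Psmd10) and 15.3% of all windows. The antioxidant response element TGACNNNGC was in 0 of 4, 5 of 30 (Psmb2, Psmb5, Psmb6, Psmd1 and Psme4) and 12.1% of all windows. In the windows of Psmb8 and Psmb10 these further matches share no bases with the capitals. These are matches of letters within the window, not measured binding sites.

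The arrays differed within groups as well as between them. The 90th percentile of all probe sets was 4.585 on control array 3 and 4.43 on control array 4, against 5.07 to 5.51 on the other 14 arrays, although the array medians all lay between 1.82 and 2.02. The corticotrope marker Pomc, which encodes the ACTH precursor, averaged 8.26 in eNampt, 8.18 in IL-6, 8.45 in CRH and 7.73 in control cultures, but the corticotrope transcription factors Tbx19 and Neurod1 had group means below every array's median. Prl of lactotropes, Tagln of mural cells and collagen genes were measured far above the array medians in all 4 groups, so the cells were not corticotropes alone. In such bulk samples, fewer cells of a type and less RNA per cell cannot be told apart.

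No proteasome gene passed the test against control for any ligand. In limma's moderated test over all genes, 0 of 39 were called at an adjusted p under 0.05 for eNampt, where 0.0137% of all genes were called, for IL-6, where 0.00687% were, and for CRH, where 0% were. The smallest adjusted p was 0.462 for eNampt (Psmd10), 0.86 for IL-6 and 0.45 for CRH (Psmd13), and 0.838 in the F test over the 3 ligands (Psmd13), which called 0 proteasome genes and 0.0206% of all genes. At an unadjusted p under 0.05, 7 proteasome genes were higher with eNampt (Psmd10, Psmb9, Psmd13, Psmg4, Psmb10, Psmc2 and Psmg3), 3 with IL-6 (Psmd12, Psmg3 and Psma5) and 4 with CRH (Psmd13, Psmb7, Psmb10 and Psmd5), and 0 were lower with any ligand. Over all genes, 6.17%, 4.42% and 5.56% passed that limit on the higher side for eNampt, IL-6 and CRH, and 1.38%, 1.11% and 0.763% on the lower side. In the F test 2 proteasome genes passed it (Psmd13 and Psmd10), against 5.14% of all genes.

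As deposited, most proteasome genes had a higher mean with each ligand than in control: 38 of 39 with eNampt, 35 of 39 with IL-6 and 36 of 39 with CRH, against 58.3%, 63.2% and 65.7% of all genes. Their median difference was 0.69 for eNampt, 0.38 for IL-6 and 0.50 for CRH, beside medians over all genes of 0.06, 0.09 and 0.10. Because the values at the bright end were low on control arrays 3 and 4, the same was computed over genes of like level, meaning the 2030 other genes whose mean lay between the 25th and 75th percentile of the proteasome genes (4.52 to 6.89). They had medians of 0.56, 0.46 and 0.46, with 89.9%, 88.1% and 81.0% of them above 0. Proteasome genes dimmer or brighter than that range are not matched in level by this set. An unadjusted p under 0.05 on the higher side was reached by 17.9%, 7.69% and 10.3% of the proteasome genes, beside 15.8%, 10.5% and 13.8% of genes of like level. The proteasome median lay near that of genes of like level, above it for eNampt and CRH and below it for IL-6. When each array was centred on those genes of like level, the median over the 39 genes was 0.11 for eNampt, and turned to -0.10 for IL-6 and -0.01 for CRH. That centring moved the median over all genes to -0.52, -0.39 and -0.40.

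**Figure D1:**
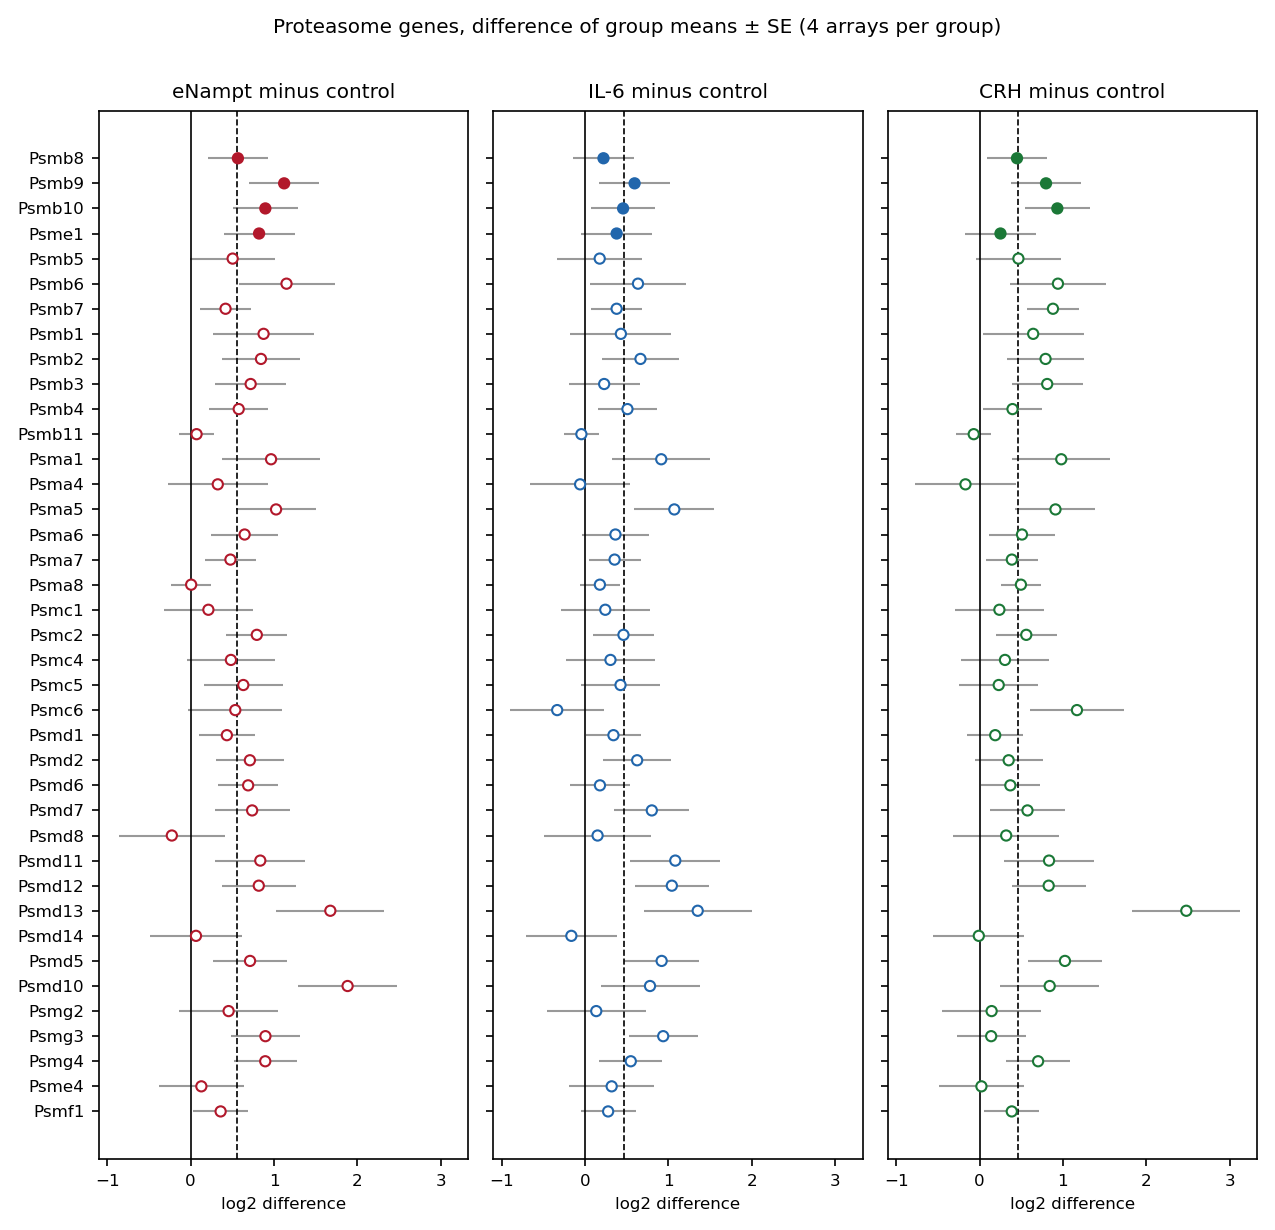
Difference of group means on the log2 scale for each proteasome gene, eNampt, IL-6 or CRH minus control, with the standard error of the fit as a grey line (4 arrays per group); filled points are immunoproteasome genes, open points the others, and the dashed line is the median of 2030 genes of like level. Most points lie right of 0 with the deposited values and scatter around the dashed line; Psmd13 with CRH (2.48) and Psmd10 with eNampt (1.88) lie farthest to the right, and none passed the adjusted threshold.

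Of the immunoproteasome genes, Psmb9 had the largest difference with eNampt. Psmb9 was at 4.43, 4.75, 3.24 and 4.63 on eNampt arrays 1 to 4 and at 3.87, 3.55, 3.41 and 4.11 on IL-6 arrays. With CRH Psmb9 was at 4.31, 3.53, 3.07 and 4.85, against 2.62, 4.08, 2.78 and 3.08 in control. Psmb9, the subunit that replaces Psmb6, was at 4.43 or more on 3 of 4 eNampt arrays and at 3.08 or less on 3 of 4 control arrays, but control array 2 and eNampt array 3 made the groups overlap. Psmb9 differed from control by 1.12 ± 0.42 (SE, 95% interval 0.21 to 2.03) for eNampt, 0.59 ± 0.42 (SE, 95% interval -0.31 to 1.502) for IL-6 and 0.80 ± 0.42 (SE, 95% interval -0.11 to 1.71) for CRH. For Psmb9 limma's adjusted p was 0.58, 0.871 and 0.801 over all genes, and the unadjusted p was 0.019 for eNampt. The Psmb9 mean was higher than control with each ligand under all alternatives run, leaving out control arrays 3 and 4 (0.91, 0.39 and 0.59 for eNampt, IL-6 and CRH) and centring on genes of like level (0.54, 0.12 and 0.30) included.

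Psmb10, which replaces Psmb7, came next. Psmb10 was at 4.97, 5.84, 4.31 and 4.88 on eNampt arrays 1 to 4 and at 4.42, 4.00, 5.06 and 4.75 on IL-6 arrays. With CRH Psmb10 was at 4.70, 5.18, 4.43 and 5.84, against 4.50, 4.48, 3.24 and 4.18 in control. All 4 groups overlapped, with control array 3 the lowest of the 16 arrays and eNampt array 2 and CRH array 4 the highest. Psmb10 differed from control by 0.90 ± 0.39 (SE, 95% interval 0.07 to 1.72) for eNampt, 0.46 ± 0.39 (SE, 95% interval -0.37 to 1.28) for IL-6 and 0.93 ± 0.39 (SE, 95% interval 0.11 to 1.76) for CRH. For Psmb10 limma's adjusted p was 0.633, 0.895 and 0.766 over all genes, and the unadjusted p was 0.0356 for eNampt and 0.0296 for CRH. Its IL-6 difference turned to -0.02 with arrays centred on genes of like level, while the eNampt and CRH differences stayed above 0 in the alternatives run.

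Psmb8, which replaces Psmb5, had smaller differences. Psmb8 was at 3.62, 3.84, 2.58 and 2.62 on eNampt arrays 1 to 4 and at 2.99, 2.25, 2.98 and 3.04 on IL-6 arrays. With CRH Psmb8 was at 2.85, 3.19, 2.25 and 3.89, against 2.99, 2.59, 2.09 and 2.72 in control. CRH array 4 and eNampt arrays 1 and 2 were the high ones, and eNampt arrays 3 and 4 lay within the control range. Psmb8 differed from control by 0.57 ± 0.36 (SE, 95% interval -0.21 to 1.35) for eNampt, 0.22 ± 0.36 (SE, 95% interval -0.56 to 1.00) for IL-6 and 0.45 ± 0.36 (SE, 95% interval -0.33 to 1.23) for CRH. For Psmb8 limma's adjusted p was 0.728, 0.945 and 0.842 over all genes. All 3 differences lay below 0 with arrays centred on genes of like level, at -0.01 for eNampt, -0.25 for IL-6 and -0.05 for CRH. Those genes (4.52 to 6.89) do not match Psmb8 in level, whose mean over the arrays was 2.91.

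Psme1 encodes the alpha chain of the PA28 cap. Psme1 was at 4.76, 4.99, 4.72 and 4.12 on eNampt arrays 1 to 4 and at 3.59, 4.22, 5.06 and 3.95 on IL-6 arrays. With CRH Psme1 was at 4.42, 4.47, 3.01 and 4.40, against 4.63, 4.04, 2.75 and 3.88 in control. Control array 3 was the lowest and CRH array 3 the next, and the groups overlapped. Psme1 differed from control by 0.82 ± 0.43 (SE, 95% interval -0.09 to 1.73) for eNampt, 0.38 ± 0.43 (SE, 95% interval -0.53 to 1.29) for IL-6 and 0.25 ± 0.43 (SE, 95% interval -0.66 to 1.16) for CRH. For Psme1 limma's adjusted p was 0.681, 0.924 and 0.928 over all genes. Without control arrays 3 and 4 the Psme1 difference was 0.31 for eNampt, -0.13 for IL-6 and -0.26 for CRH. RefSeq lists 3 further loci named after Psme1, and whether the Psme1 probes also match these loci was not checked.

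Over these 4 genes the median difference from control was 0.86 for eNampt, 0.42 for IL-6 and 0.62 for CRH, beside 0.65, 0.38 and 0.50 for the 35 genes outside the immunoproteasome. With arrays centred on genes of like level the medians were 0.28, -0.06 and 0.12 for the immunoproteasome, beside 0.07, -0.10 and -0.01 for the others. Psmb8, Psmb9 and Psme1 are dimmer than the genes used for that centring. The difference between these gene groups was not tested. Markers of leukocytes, which carry immunoproteasomes, were measured beside them: the summed level of 11 leukocyte markers ran from 6.68 to 7.78 over eNampt arrays, 6.06 to 6.40 over IL-6 arrays, 5.81 to 7.34 over CRH arrays and 5.98 to 7.49 over control arrays (log2 of the sum). Of the 11 markers, 6 had a higher and 5 a lower mean than control, counted for each ligand on its own, with a median difference of 0.10 for eNampt, 0.05 for IL-6 and 0.12 for CRH. The highest with eNampt was Cd74, the MHC class II invariant chain, which averaged 6.33 with eNampt, 4.63 with IL-6, 4.80 with CRH and 4.36 in control, and the lowest was C1qa, a complement gene of macrophages, at 2.12, 2.94, 3.04 and 2.74. Ptprc, the pan-leukocyte CD45, had group means below every array's median. Of the 11 markers, only 4 in eNampt and CRH cultures and 5 in IL-6 and control cultures had means above every array's median. The counts of higher and lower markers thus rest largely on dim signal. The sum is over unlogged levels, so the brightest markers weigh most in it. The part of leukocytes in the immunoproteasome values was not tested.

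**Figure D2:**
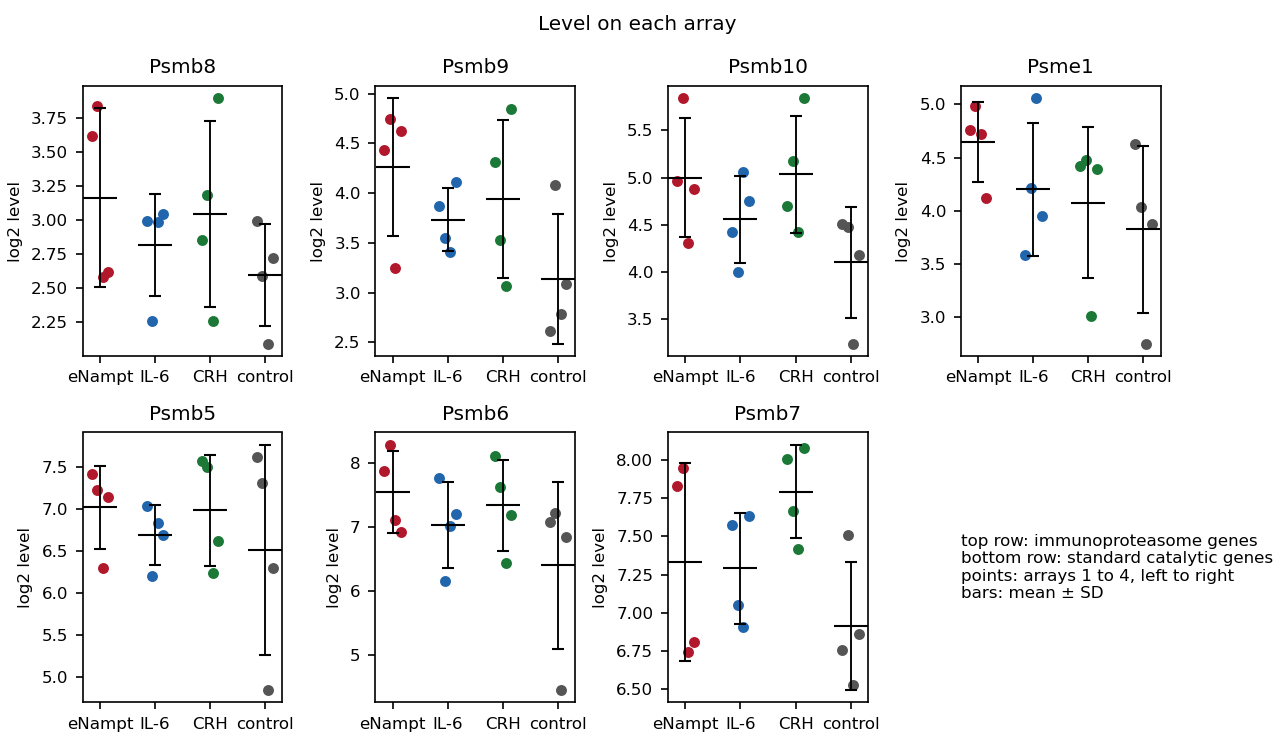
Level of each immunoproteasome gene (top row) and of the standard catalytic genes (bottom row) on every array, log2 scale, in eNampt, IL-6, CRH and control cultures; points are arrays 1 to 4 from left to right, and bars give the mean and SD of the 4 arrays. Each ligand group overlaps the control points in every panel, and control array 3, the third control point, is the lowest control in all panels but Psmb9.

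The standard catalytic genes showed as wide a spread. Psmb6 was at 7.88, 8.29, 7.10 and 6.93 on eNampt arrays 1 to 4 and at 7.77, 6.15, 7.01 and 7.20 on IL-6 arrays. With CRH Psmb6 was at 8.11, 7.62, 6.44 and 7.19, against 7.08, 7.23, 4.45 and 6.84 in control. Psmb6, the caspase-like subunit, was between 6.84 and 7.23 on control arrays 1, 2 and 4, which overlapped all 3 ligand groups, and far lower on control array 3. Psmb6 differed from control by 1.15 ± 0.58 (SE, 95% interval -0.08 to 2.38) for eNampt, 0.63 ± 0.58 (SE, 95% interval -0.60 to 1.87) for IL-6 and 0.94 ± 0.58 (SE, 95% interval -0.29 to 2.17) for CRH. For Psmb6 limma's adjusted p was 0.681, 0.904 and 0.827 over all genes. Leaving out control arrays 3 and 4 brought its differences to 0.40, -0.12 and 0.19.

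Psmb5 was at 7.41, 7.22, 6.30 and 7.14 on eNampt arrays 1 to 4 and at 7.04, 6.20, 6.83 and 6.69 on IL-6 arrays. With CRH Psmb5 was at 7.57, 7.498, 6.24 and 6.61, against 7.62, 7.30, 4.84 and 6.30 in control. Psmb5, the chymotrypsin-like subunit, was highest of all on control array 1 and lowest of all on control array 3. Psmb5 differed from control by 0.50 ± 0.51 (SE, 95% interval -0.58 to 1.59) for eNampt, 0.18 ± 0.51 (SE, 95% interval -0.91 to 1.26) for IL-6 and 0.47 ± 0.51 (SE, 95% interval -0.62 to 1.55) for CRH. For Psmb5 limma's adjusted p was 0.843, 0.976 and 0.878 over all genes. Its differences turned to -0.44, -0.77 and -0.48 for eNampt, IL-6 and CRH without control arrays 3 and 4, and to -0.02, -0.25 and -0.07 with quantile normalization repeated.

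Psmb7 was at 7.83, 7.95, 6.74 and 6.81 on eNampt arrays 1 to 4 and at 7.57, 7.05, 6.91 and 7.63 on IL-6 arrays. With CRH Psmb7 was at 8.01, 7.67, 7.42 and 8.08, against 6.76, 7.51, 6.53 and 6.86 in control. Psmb7, the trypsin-like subunit, was high on all 4 CRH arrays, of which array 3 lay within the control range. Psmb7 differed from control by 0.42 ± 0.31 (SE, 95% interval -0.24 to 1.08) for eNampt, 0.38 ± 0.31 (SE, 95% interval -0.28 to 1.04) for IL-6 and 0.88 ± 0.31 (SE, 95% interval 0.22 to 1.54) for CRH. For Psmb7 limma's adjusted p was 0.767, 0.888 and 0.719 over all genes, and the unadjusted p was 0.0124 for CRH. With arrays centred on genes of like level its difference was 0.38 for CRH, and turned to -0.16 for eNampt and -0.10 for IL-6. RefSeq lists further loci named after Psmb6 and Psmb7, but none after Psmb5, Psmb8, Psmb9 or Psmb10.

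Each immunoproteasome subunit was also set against the subunit it replaces on the same array, as a difference of log2 levels. The log2 level of Psmb8 minus that of Psmb5 differed from its control mean by 0.06 with eNampt, 0.05 with IL-6 and -0.02 with CRH, with SDs over arrays of 0.48, 0.171 and 0.865 against 0.931 in control. For Psmb9 minus Psmb6 the differences from control were -0.03, -0.04 and -0.14. For Psmb10 minus Psmb7 they were 0.48, 0.08 and 0.05, where the eNampt arrays ran from -2.86 to -1.93 and the control arrays from -3.28 to -2.25. Every ligand group overlapped control for all 3 pairs. The pairs are not of like level, and control array 3 still stood apart after the subtraction, at -2.75 for Psmb8 minus Psmb5 (other control arrays -4.71 to -3.58) and at -1.67 for Psmb9 minus Psmb6 (others -4.46 to -3.15). These within-array values are a description and were not tested.

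The remaining 20S genes lay in the same range. The 6 alpha ring genes had a median difference of 0.56 with eNampt, 0.36 with IL-6 and 0.50 with CRH, and 6, 5 and 5 of them were above 0. The 4 structural beta genes had medians of 0.78, 0.47 and 0.72, from Psmb4 to Psmb1 with eNampt (0.58 to 0.87). Psma5 was at 6.82, 7.70, 6.20 and 7.70 on eNampt arrays 1 to 4 and at 7.34, 6.26, 7.34 and 7.66 on IL-6 arrays. With CRH Psma5 was at 7.18, 7.79, 6.39 and 6.61, against 6.58, 6.52, 4.73 and 6.50 in control. Psma5, an alpha ring subunit, was at 6.50 to 6.58 on 3 control arrays and at 4.73 on control array 3. Psma5 differed from control by 1.02 ± 0.48 (SE, 95% interval -0.00 to 2.05) for eNampt, 1.07 ± 0.48 (SE, 95% interval 0.04 to 2.10) for IL-6 and 0.91 ± 0.48 (SE, 95% interval -0.12 to 1.94) for CRH. For Psma5 limma's adjusted p was 0.666, 0.86 and 0.801 over all genes, and the unadjusted p was 0.0424 for IL-6. Its differences kept their sign in all alternatives run. Psma4 had the lowest alpha ring difference with CRH, -0.17 ± 0.60 (SE). The tissue-restricted Psma8 (testis) and Psmb11 (thymus) were the only proteasome genes with means below the median of all probe set values, 1.95, and their differences ran from -0.07 to 0.50.

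Among 19S genes Psmd13, a non-ATPase subunit of the lid, had the largest differences. Psmd13 was at 6.27, 5.60, 6.32 and 5.75 on eNampt arrays 1 to 4 and at 3.96, 6.79, 5.77 and 6.11 on IL-6 arrays. With CRH Psmd13 was at 6.10, 6.80, 5.78 and 8.47, against 5.40, 3.25, 4.67 and 3.92 in control. Neither the CRH nor the eNampt arrays overlapped the control arrays, and CRH array 4 lay far above the rest. Psmd13 differed from control by 1.68 ± 0.65 (SE, 95% interval 0.29 to 3.06) for eNampt, 1.35 ± 0.65 (SE, 95% interval -0.03 to 2.74) for IL-6 and 2.48 ± 0.65 (SE, 95% interval 1.10 to 3.87) for CRH. For Psmd13 limma's adjusted p was 0.594, 0.86 and 0.45 over all genes, and the unadjusted p was 0.0211 for eNampt and 0.00176 for CRH. Without control arrays 3 and 4 the Psmd13 differences were 1.66, 1.33 and 2.46, and without CRH array 4 that of CRH was 1.92 (adjusted p 0.673 from limma). Non-overlap in the higher direction was seen for 2 proteasome genes with eNampt (Psmd13 and Psmg4), 1 with IL-6 (Psmd12) and 1 with CRH (Psmd13), against 2.81%, 2.41% and 2.05% of all genes. As shares these were 5.13%, 2.56% and 2.56% of the proteasome genes, beside 6.65%, 3.79% and 3.5% of genes of like level. In the lower direction it was seen for 0 proteasome genes, against 1.33%, 0.756% and 0.453% of all genes.

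Psmd12 was at 6.002, 6.80, 5.31 and 6.50 on eNampt arrays 1 to 4 and at 6.65, 6.41, 5.99 and 6.45 on IL-6 arrays. With CRH Psmd12 was at 6.95, 5.90, 4.82 and 6.99, against 5.46, 5.93, 4.84 and 5.12 in control. Psmd12, another lid subunit, was above control on every IL-6 array, the lowest of them by a narrow margin. Psmd12 differed from control by 0.82 ± 0.44 (SE, 95% interval -0.13 to 1.76) for eNampt, 1.04 ± 0.44 (SE, 95% interval 0.09 to 1.99) for IL-6 and 0.83 ± 0.44 (SE, 95% interval -0.12 to 1.78) for CRH. For Psmd12 limma's adjusted p was 0.685, 0.86 and 0.801 over all genes, and the unadjusted p was 0.0335 for IL-6. The 9 non-ATPase genes had median differences of 0.71, 0.62 and 0.37. Psmd8 had the only negative difference with eNampt, -0.23 ± 0.64 (SE), and Psmd14, the lid's deubiquitinase, was near 0 throughout, at 0.06 with eNampt, -0.17 with IL-6 and -0.01 with CRH.

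The 5 ATPase genes of the 19S base had medians of 0.54, 0.30 and 0.305. Psmc6 was at 5.33, 5.76, 5.10 and 5.19 on eNampt arrays 1 to 4 and at 5.07, 3.86, 3.88 and 5.09 on IL-6 arrays. With CRH Psmc6 was at 6.06, 6.14, 5.56 and 6.15, against 3.41, 6.95, 4.61 and 4.26 in control. Psmc6 was the most scattered of them in control, with array 2 far above the other arrays. Psmc6 differed from control by 0.54 ± 0.56 (SE, 95% interval -0.67 to 1.74) for eNampt, -0.34 ± 0.56 (SE, 95% interval -1.54 to 0.87) for IL-6 and 1.17 ± 0.56 (SE, 95% interval -0.04 to 2.38) for CRH. For Psmc6 limma's adjusted p was 0.848, 0.947 and 0.794 over all genes. Psmc2 had 0.79 ± 0.365 (SE, unadjusted p 0.0472) with eNampt, the highest of the ATPase genes, and Psmc1 the lowest, 0.21 ± 0.53 (SE).

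Genes for assembly factors held the largest eNampt difference. Psmd10 was at 6.54, 6.20, 4.25 and 5.56 on eNampt arrays 1 to 4 and at 3.63, 3.87, 4.42 and 6.21 on IL-6 arrays. With CRH Psmd10 was at 5.40, 5.11, 3.64 and 4.24, against 3.38, 3.96, 3.31 and 4.37 in control. Psmd10 (gankyrin), a chaperone of 19S base assembly, was above every control array on 3 of 4 eNampt arrays, with eNampt array 3 inside the control range. Psmd10 differed from control by 1.88 ± 0.59 (SE, 95% interval 0.61 to 3.15) for eNampt, 0.78 ± 0.59 (SE, 95% interval -0.49 to 2.05) for IL-6 and 0.84 ± 0.59 (SE, 95% interval -0.43 to 2.11) for CRH. For Psmd10 limma's adjusted p was 0.462, 0.876 and 0.83 over all genes, and the unadjusted p was 0.00669 for eNampt. That eNampt difference was 1.97 without control arrays 3 and 4, 1.37 with quantile normalization repeated and 1.30 with arrays centred on genes of like level, with adjusted p of 0.823, 0.957 and 0.225 in limma's test. Psmd5, another chaperone of the base, had 0.71 with eNampt, 0.92 with IL-6 and 1.02 with CRH (unadjusted p 0.132, 0.0585 and 0.0374). Of the 20S assembly chaperones, Psmg3 had 0.90, 0.94 and 0.14, Psmg4 had 0.89, 0.55 and 0.70, and Psmg2 had 0.46, 0.13 and 0.14. The activator Psme4 (PA200) had 0.13, 0.32 and 0.02, and the regulator Psmf1 (PI31) had 0.36, 0.28 and 0.39.

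**Figure D3:**
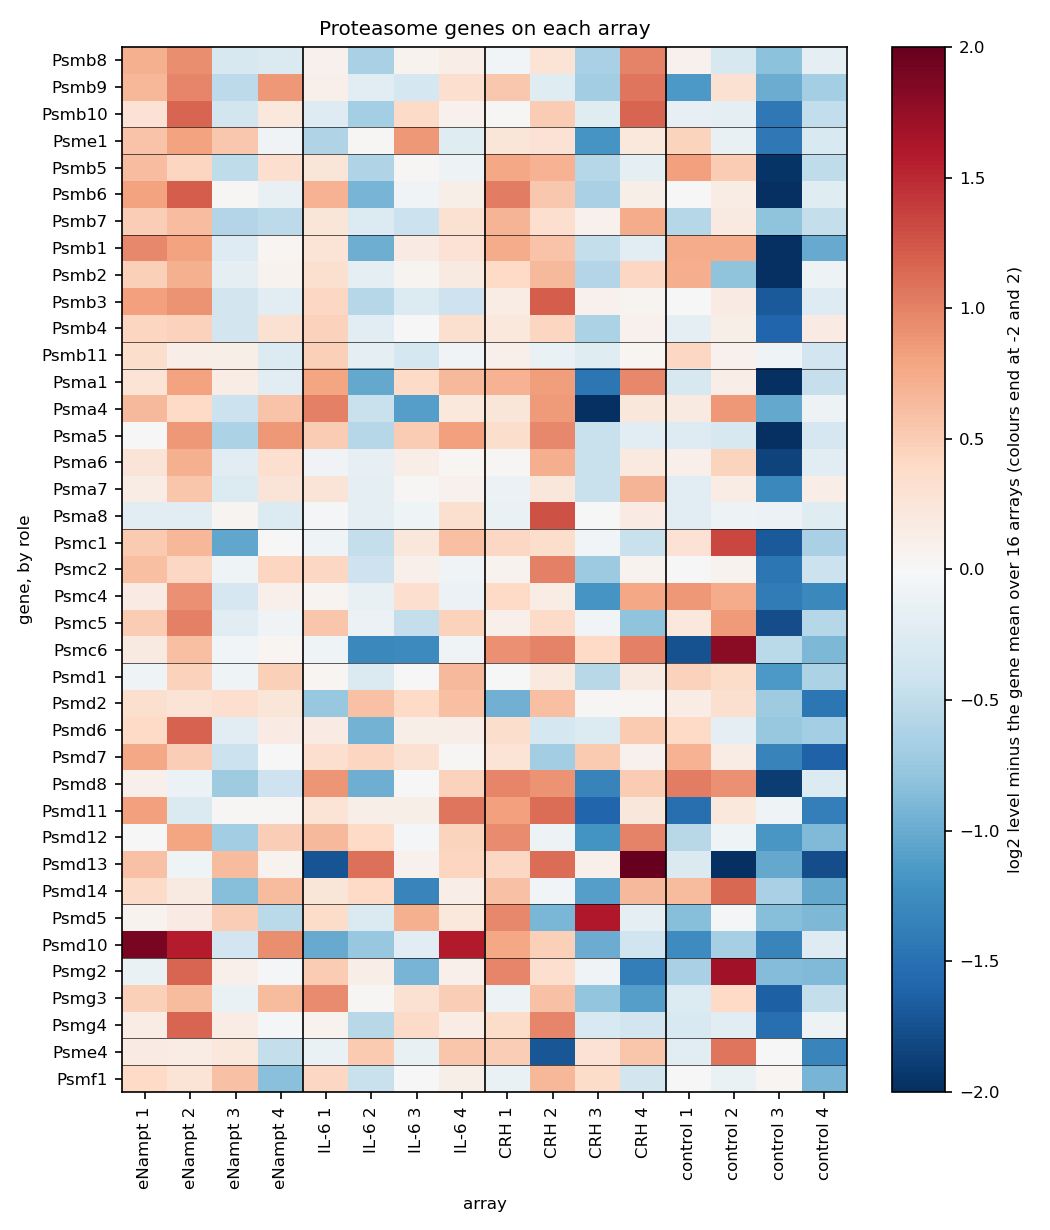
Log2 level of each proteasome gene on each array minus that gene's mean over the 16 arrays, red above and blue below, with genes ordered by role from the immunoproteasome at the top and arrays by group from eNampt to control. Control array 3 is blue for nearly all 20S and 19S genes, and CRH array 3, eNampt array 3 and IL-6 array 2 are the bluest columns of their groups.

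Proteasome genes tended to be low on the same arrays. Control array 3 was the lowest of all 16 arrays for 23 of 39 proteasome genes (59.0%), against 25.8% of genes of like level and 14.6% of all genes. Control array 4, whose bright genes were as low, was the lowest for 4 of 39 (10.3%), against 28.6% of genes of like level and 13.9% of all genes. Relative to each gene's mean over 16 arrays, proteasome genes averaged -1.24 on control array 3 and -0.62 on control array 4, where genes of like level averaged -0.82 and -0.96. On control array 4 the 14 genes of the 20S core averaged -0.29 and the 16 genes of the 19S cap and its chaperones -0.92. The low control arrays thus differed in which proteasome genes were low.

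Each ligand group also held an array on which proteasome genes were low. CRH array 3 and eNampt array 3 were each the lowest of their group for 26 of 39 genes, IL-6 array 2 for 24, and control array 3 for 26. Proteasome genes averaged -0.18 on eNampt array 3, -0.28 on IL-6 array 2 and -0.45 on CRH array 3, where genes of like level averaged 0.14, -0.02 and -0.19. On eNampt array 2 they averaged 0.61 against 0.24 for genes of like level. The median SD of a proteasome gene over 4 arrays was 0.50 in eNampt, 0.42 in IL-6, 0.65 in CRH and 0.84 in control, and 22 of 39 genes had their largest SD in control.

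**Figure D4:**
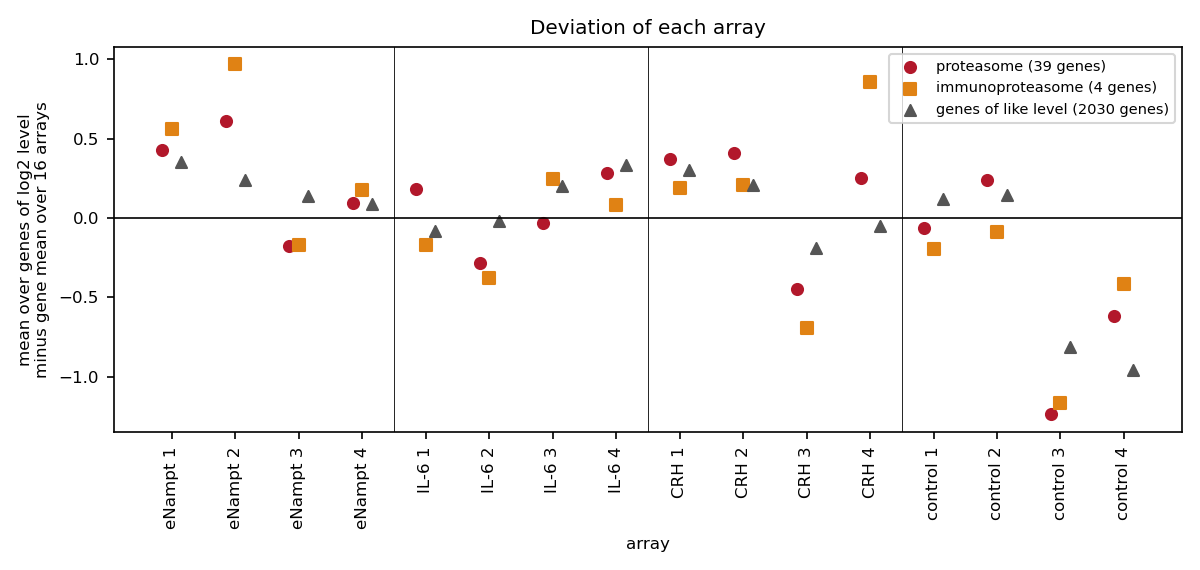
Mean over genes of the log2 level minus the gene's mean over 16 arrays, for each array, of the 39 proteasome genes (circles), the 4 immunoproteasome genes (squares) and 2030 genes of like level (triangles). Control arrays 3 and 4 lie lowest, proteasome genes are below genes of like level on control array 3 (-1.24 against -0.82) and above them on control array 4 (-0.62 against -0.96), and immunoproteasome genes are high on eNampt array 2 and CRH array 4.

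The ligand differences moved with these 2 control arrays. Without control arrays 3 and 4 the median of the 35 genes outside the immunoproteasome was 0.17 for eNampt, -0.12 for IL-6 and 0.06 for CRH, against 0.65, 0.38 and 0.50 with all arrays. For the 4 immunoproteasome genes it was 0.44, 0.05 and 0.40, against 0.86, 0.42 and 0.62. The number of the 39 genes above 0 was then 24 for eNampt, 18 for IL-6 and 21 for CRH, and genes of like level had medians of 0.02, -0.06 and -0.06. Leaving out control array 3 alone gave 0.31, 0.10 and 0.23 outside the immunoproteasome and 0.54, 0.11 and 0.46 within it. Of the 26 genes named by the rule, Psma5, Psmb9, Psmd5, Psmd10, Psmd12 and Psmd13 had a higher mean than control with all 3 ligands in every alternative run, and 0 proteasome genes were called in any.

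**Figure D5:**
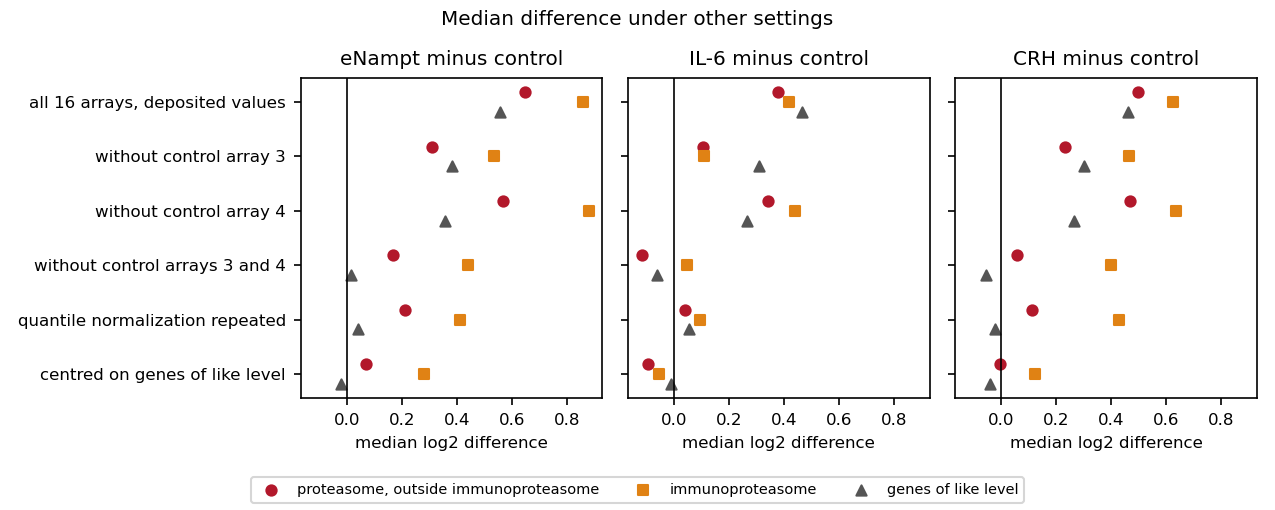
Median log2 difference from control of the 35 proteasome genes outside the immunoproteasome (circles), the 4 immunoproteasome genes (squares) and 2030 genes of like level (triangles), for eNampt, IL-6 and CRH, with all 16 arrays and under 5 other settings. Leaving out both low control arrays, repeating quantile normalization or centring on genes of like level brings the medians toward 0, and the IL-6 medians to between -0.12 and 0.09.

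Between ligands, proteasome genes were closer still. In limma's test 0 of 39 were called for eNampt against CRH, where 0.0137% of all genes were, for eNampt against IL-6, where 0.0137% were, and for CRH against IL-6, where 0% were. Their median differences were 0.12, 0.18 and 0.10, and 27, 29 and 25 of the 39 genes were above 0, against 42.9%, 47.5% and 54.9% of all genes. Genes of like level had medians of 0.12, 0.08 and -0.0028, with 58.8%, 59.1% and 49.7% above 0. The proteasome medians of 2 of these pairs changed sign when 1 array was left out. For eNampt against CRH the median was -0.065 without CRH array 3 and -0.031 without eNampt array 2, and for CRH against IL-6 it was -0.072 without IL-6 array 2, -0.033 without CRH array 1 and -0.037 without CRH array 2. The eNampt against IL-6 median ran from 0.033 to 0.33 with 1 array left out. At an unadjusted p under 0.05, 1 gene was higher in CRH than in IL-6 cultures (Psmc6, by 1.504 ± 0.56 SE, 95% interval 0.30 to 2.71, adjusted p 1.0), against 2.16% of all genes, and 0 were lower, against 1.81%. For eNampt against CRH 0 proteasome genes passed that limit, with 2.56% of all genes higher and 2.37% lower, and for eNampt against IL-6 0 passed it, with 1.74% higher and 1.62% lower. The CRH arrays did not overlap the IL-6 arrays for Psmc6, nor did the eNampt arrays, in both cases with IL-6 lower, against 1.33% and 1.28% of all genes. No proteasome gene was separated in the other direction (0.989% and 1.53% of all genes), and for eNampt against CRH 0 were separated either way (1.22% higher and 1.74% lower over all genes). Psmd10 was higher in eNampt cultures by 1.04 than in CRH and by 1.10 than in IL-6 cultures, with 95% intervals of -0.23 to 2.31 and -0.17 to 2.38. The differences and overlaps between ligands use no control array. Their standard errors, intervals and p-values come from the fit to all arrays, so the spread of the control arrays enters them. When limma was fitted to only the 8 arrays of each comparison, 0 proteasome genes were called. At an unadjusted p under 0.05 that fit gave 1 proteasome gene for eNampt against CRH, 1 for eNampt against IL-6 and 1 for CRH against IL-6. The share of all genes passing that limit in those fits was not computed.

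Other genes of the pathway gave 0 calls in any list. Of 20 proteasome partners outside the symbol pattern, 15 were measured, and 14 of them (not the same 14 throughout) had a higher mean than control when counted for each ligand on its own, with medians of 0.49, 0.28 and 0.40. Genes of like level to the proteasome genes had 89.9%, 88.1% and 81.0% above 0 and medians of 0.56, 0.46 and 0.46. Adrm1, a ubiquitin receptor of the 19S cap, had 0.76, 0.33 and 0.68, and the core maturation factor Pomp 0.45, 0.18 and 0.58 for eNampt, IL-6 and CRH. Of 8 measured genes of proteasome transcription control, 7, 7 and 8 were above 0, and Nfe2l2, the Nrf2 activator of oxidative stress genes, had 0.88, 0.29 and 0.74. Only 2 of 6 ubiquitin and E1 genes were measured, Uba1 with 0.42, 0.21 and -0.19 and Uba6 with 0.52, -0.06 and 0.04.

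Genes that work with the immunoproteasome gave mixed values. Of 14 measured genes of MHC class I antigen loading, 11, 12 and 7 were above 0, with medians of 0.06, 0.22 and 0.11. The peptide transporter gene Tap1, a neighbour of Psmb8 and Psmb9 in the MHC region, had 0.08, 0.24 and -0.55, and Tap2 had 0.02, 0.04 and -0.06. B2m, the MHC class I light chain, had 0.53, 0.73 and 1.27, and Npepps, a cytosolic aminopeptidase that trims peptides, had 1.56, 0.52 and 1.21. Of 12 measured genes of interferon signalling, 9, 10 and 10 were above 0, with medians of 0.22, 0.31 and 0.18. Beside both lists, 58.3%, 63.2% and 65.7% of all genes were above 0, and 89.9%, 88.1% and 81.0% of genes of like level to the proteasome genes. Irf9, the DNA-binding part of the interferon-activated complex ISGF3, was at 3.34, 4.67, 3.26 and 4.55 on eNampt arrays 1 to 4, against 2.31, 1.94, 2.80 and 2.97 on control arrays. It is named for having the largest moderated t of these 12 genes with eNampt and with CRH. Its groups did not overlap for eNampt or CRH, with differences of 1.45 and 1.34. Of all genes, 2.81% and 2.05% were separated in that direction. For IL-6 the Irf9 groups overlapped, with a difference of 1.15. The adjusted p of Irf9 in limma's test was 0.511 for eNampt, 0.73 for CRH and 0.86 for IL-6. Nlrc5, the MHC class I transactivator, had group means below every array's median and differences of -0.06, -0.08 and 0.06.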

How the data were processed

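The authors deposited log2 values for 16 arrays, 1 value per probe set, and the submitters' processing notes name RMA. Its version, the probe set level and the build are not stated in the labels. Of 36685 probe sets, 14824 carry 1 gene symbol in the array annotation, 829 several and 21032 none. Symbols were updated through Entrez identifiers (14670 probe sets matched), and the brightest probe set of each of the 14557 genes was kept, dim ones included.

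Groups came from the sample titles. limma 3.58.1 in R 4.3.3 fitted 1 mean per group to all 16 arrays, with 12 residual and 2.28 prior degrees of freedom and a median residual SD of 0.409. Tests were two-sided and adjusted by Benjamini-Hochberg over all genes, with 0.05 as the limit for a call. The number of arrays limits the precision, and 15 of the 39 genes have further loci named after them in RefSeq. These were found by name, and whether the probes also match them was not checked. Psma6, Psmb3, Psmb6 and Psmd1 each have 1 such locus with a probe set of its own.

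The genes, lists and tests were chosen with earlier results of these data known. Named genes were the 6 standard and immunoproteasome catalytic genes and Psme1, for each ligand the 3 genes higher and the 3 lower with the largest moderated t, the highest and lowest eNampt difference of each role, and 1 gene each way for each pair of ligands. Other genes are named after their values were seen. Of the other lists, Tap1, Tap2, B2m, Nlrc5 and Pomp were taken, and the gene with the largest moderated t in each list and comparison. Irf1 and Nfe2l1 have no probe set of their own here. Alternatives were other scalings, fits, filters and left-out arrays. Quantile normalization repeated means that it was run on the deposited gene values. The processing notes name RMA only, so whether those values had been quantile normalized before is not stated. Centring on genes of like level was added after seeing the data, and the motif letters, which are shortened cores, were set after it too.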

Additional observations from a re-analysis of the deposited data

Results flagged for a closer look

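In 11 of 104 sets of 4 arrays (26 named genes in 4 groups), the highest or lowest array stood farther from the next than Dixon's 95% critical value allows. Chance flags about 1 in 20 sets. On control array 3, Psma5 was at 4.73 with the other control arrays at 6.50 to 6.58, and Psmb6 was at 4.45 with the others at 6.84 to 7.23. On IL-6 array 2, Psmb1 was at 6.46 with the other IL-6 arrays at 7.60 to 7.73, and the immunoproteasome gene Psmb8 was at 2.25 with the others at 2.98 to 3.04. On CRH array 3, the ATPase gene Psmc6 was at 5.56 with the other CRH arrays at 6.06 to 6.15, and Psme1 was at 3.01 with the others at 4.40 to 4.47. The deubiquitinase gene Psmd14 was at 5.50 on IL-6 array 3, below 6.94 to 7.21 on the other IL-6 arrays.

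The activator gene Psme4 was low on 2 arrays, at 4.44 on eNampt array 4 (others 5.07 to 5.14) and at 3.21 on CRH array 2 (others 5.22 to 5.48). On control array 2, chaperone genes were high: Psmd5 was at 4.38 (other control arrays 3.51 to 3.56), and Psmg2 was at 5.23 (others 2.67 to 2.90). The low values of Psma5 and Psmb6 on control array 3 and of Psmb1 and Psmb8 on IL-6 array 2 fall on arrays that were the lowest of their group for 26 and 24 of the 39 proteasome genes. The causes were not tested.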

How the results depend on the processing

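The count of 0 proteasome genes called held for every comparison under all alternatives run. The medians of both gene groups kept their sign when any 1 array was left out, running from 0.31 to 0.92, 0.10 to 0.65 and 0.23 to 0.73 outside the immunoproteasome and from 0.54 to 0.99, 0.11 to 0.53 and 0.33 to 0.90 within it for eNampt, IL-6 and CRH. With arrays centred on genes of like level, the immunoproteasome median was 0.28 for eNampt and -0.06 for IL-6, though Psmb8, Psmb9 and Psme1 are dimmer than those genes. Arrays with the same replicate number correlated from -0.18 to 0.30 in their deviations from the group means, above 0.1 for 8 of 24 pairs. The main fit did not pair the arrays by number, and whether the number marks a shared batch was not tested. The arrays numbered 3 of eNampt, CRH and control did deviate together (0.23 to 0.30), IL-6 array 3 did not (-0.023 to 0.0055), and 8 of 16 arrays correlated best with their own number. Such values were not confined to shared numbers. IL-6 array 2 correlated with array 3 of control (0.28), eNampt (0.24) and CRH (0.20), and control array 4 with IL-6 array 1 (0.23). With the replicate number as a block, 0 proteasome genes were called and the smallest adjusted p in limma was 0.391 for eNampt (Psmd10), 0.742 for IL-6 (Psmd12) and 0.502 for CRH (Psmd13). At an unadjusted p under 0.05 the block gave 12, 4 and 7 proteasome genes, against 7, 3 and 4 without it. The share of all genes passing that limit with the block was not computed. Whether the rise is particular to proteasome genes can therefore not be said. Dim signal limits Psma8 and Psmb11.

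Of the 78 differences from control of the 26 named genes, 30 kept their sign in every alternative, and 150 of 1476 alternative values changed it. The 1476 include settings that leave the differences as they are, such as the replicate block, and so could not change a sign. None of the 78 differences was called, and the cause of the changes was not tested. Without control arrays 3 and 4, eNampt differences turned to -0.22 for Psma4, -0.0104 for Psma8, -0.36 for Psmb1, -0.17 for Psmb11, -0.44 for Psmb5, -0.78 for Psmc1, -0.80 for Psmd14, -0.41 for Psme4 and -0.24 for Psmg2. The IL-6 differences then turned to -0.80 for Psmb1, -0.77 for Psmb5, -0.12 for Psmb6, -0.75 for Psmc1, -0.0199 for Psmc2, -0.88 for Psmd8, -0.13 for Psme1, -0.22 for Psme4 and -0.56 for Psmg2, and those of CRH to -0.59 for Psmb1, -0.48 for Psmb5, -0.75 for Psmc1, -0.71 for Psmd8, -0.26 for Psme1, -0.52 for Psme4, -0.55 for Psmg2 and -0.42 for Psmg3.

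When quantile normalization was repeated, eNampt differences turned to -0.19 for Psma4, -0.016 for Psmb5, -0.056 for Psmb7, -0.32 for Psmc1, -0.058 for Psmc6, -0.51 for Psmd14, -0.41 for Psme4 and -0.12 for Psmf1. Those of IL-6 turned to -0.25 for Psmb5, -0.015 for Psmb7, -0.19 for Psmc1, -0.17 for Psmd8, -0.075 for Psme4 and -0.072 for Psmf1, and those of CRH to -0.069 for Psmb5, -0.33 for Psmc1, -0.0085 for Psmd8, -0.019 for Psme1, -0.40 for Psme4 and -0.19 for Psmg3. Centred on the median of all genes, 2 changed sign, to -0.029 for Psma8 with eNampt and -0.035 for Psme4 with CRH. Array weights gave -0.0092 for Psma8 with eNampt and 0.039 for Psma4, 0.093 for Psmd14 and -0.029 for Psme4 with CRH.

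Centring on genes of like level, added after seeing the data, turned eNampt differences to -0.25 for Psma4, -0.57 for Psma8, -0.51 for Psmb11, -0.0024 for Psmb4, -0.075 for Psmb5, -0.16 for Psmb7, -0.012 for Psmb8, -0.37 for Psmc1, -0.044 for Psmc6, -0.52 for Psmd14, -0.45 for Psme4, -0.22 for Psmf1 and -0.12 for Psmg2. It turned IL-6 differences to -0.30 for Psma8, -0.044 for Psmb1, -0.018 for Psmb10, -0.30 for Psmb5, -0.095 for Psmb7, -0.25 for Psmb8, -0.23 for Psmc1, -0.013 for Psmc2, -0.32 for Psmd8, -0.095 for Psme1, -0.15 for Psme4, -0.20 for Psmf1 and -0.34 for Psmg2, and CRH differences to -0.0055 for Psma8, -0.11 for Psmb4, -0.036 for Psmb5, -0.052 for Psmb8, -0.26 for Psmc1, -0.18 for Psmd8, -0.25 for Psme1, -0.48 for Psme4, -0.12 for Psmf1, -0.36 for Psmg2 and -0.36 for Psmg3. Psma8 and Psmb11, with means of 1.34 and 1.78, lie far below the 4.52 to 6.89 of the genes used for centring. Before centring their eNampt differences were 0.0059 and 0.0708. Their centred eNampt values thus largely repeat the offset subtracted from every gene.

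Leaving out 1 array at a time changed the sign of 31 differences. With eNampt they ran from -0.0094 to 0.62 for Psma4, -0.069 to 0.043 for Psma8, -0.06 to 0.21 for Psmb11, -0.053 to 0.87 for Psmb5, -0.29 to 0.72 for Psmc1, -0.29 to 0.44 for Psmd14, -0.84 to 0.14 for Psmd8 and -0.27 to 0.52 for Psme4. With IL-6 they ran from -0.43 to 0.28 for Psma4, -0.22 to 0.84 for Psmb1, -0.21 to 0.092 for Psmb11, -0.38 to 0.54 for Psmb5, -0.016 to 0.93 for Psmb6, -0.26 to 0.75 for Psmc1, -0.80 to 0.38 for Psmc6, -0.52 to 0.23 for Psmd14, -0.46 to 0.51 for Psmd8, -0.0804 to 0.71 for Psme4 and -0.0998 to 0.75 for Psmg2. With CRH they ran from -0.52 to 0.46 for Psma4, -0.0025 to 1.05 for Psmb1, -0.20 to 0.067 for Psmb11, -0.0091 to 0.61 for Psmb4, -0.0905 to 0.83 for Psmb5, -0.27 to 0.74 for Psmc1, -0.36 to 0.37 for Psmd14, -0.29 to 0.85 for Psmd8, -0.11 to 0.61 for Psme1, -0.38 to 0.56 for Psme4, -0.19 to 0.76 for Psmg2 and -0.24 to 0.44 for Psmg3. The replicate block, the dim filter, the variance model, the 8-array fits and the other probe set choices changed 0 signs.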
